A study of Mus with 15 samples.

Results

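Transcripts of 7 macrophage and inflammation genes were followed in the abdominal aorta of mice infused with angiotensin II. They are 7 of the 108027 Ensembl transcripts listed for every mouse, and 1 transcript stands for each gene. They were chosen by name as markers or signals of macrophages, by a rule that uses no measured value but was written with earlier results of these data known. The gene names came with the list of transcripts. The files hold only transcript identifiers, so the names could not be checked against them, and a value below is that of 1 transcript and not of the whole gene. RNA-seq was made from 15 wild-type (WT) male C57BL/6 mice, 8 to 10 weeks old according to the methods, with 5 mice per group. Control mice received saline and AngII mice received angiotensin II, a peptide hormone that raises blood pressure, at 500 ng/kg/min from an osmotic pump for 14 days, and both groups were given double distilled water by gavage. AngII+QDG mice received the same infusion and Qingda granule (QDG), a herbal preparation, at 1.145 g/kg/d by gavage. For the 5 AngII mice the labelled description rises in steps from 500 to 504 ng/kg/min, whereas their treatment field gives 500 for each. The files do not name their unit, which was taken to be FPKM from the values and the use of StringTie. FPKM scales the fragments of a transcript for its length and for the number of fragments mapped, so levels of different transcripts can be compared.

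Macrophages of the arterial wall are resident cells or arise from monocytes that leave the blood. They engulf debris, present antigen to T cells and secrete chemokines and cytokines that draw in and activate further leukocytes. In angiotensin II models of hypertension, the adventitia is a known site where they gather.

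The members fall into 4 roles. Cd68 (ENSMUST00000018918), a glycoprotein of lysosomes, and Lyz2 (ENSMUST00000092163), a lysozyme that cleaves bacterial cell walls, are used to mark myeloid cells. Cd14 (ENSMUST00000061829), a co-receptor for bacterial lipopolysaccharide, and Mrc1 (ENSMUST00000028045), the mannose receptor of resident and alternatively activated macrophages, are receptors of the cell surface. H2-Aa (ENSMUST00000040655) encodes a chain of the class II molecule that presents peptides to helper T cells. Ccl2 (ENSMUST00000000193), the chemokine that attracts monocytes, and Il6 (ENSMUST00000026845), an inflammatory cytokine, are secreted signals. On the mouse build GRCm38.p6, RefSeq places Cd68 at chr11:69664213-69666170 and Ccl2 on the same chromosome at chr11:82035577-82037452. Lyz2 lies at chr10:117277541-117282272, Cd14 at chr18:36725064-36726815 and Mrc1 at chr2:14229414-14332023. Il6 lies at chr5:30013114-30019975, and H2-Aa at chr17:34282744-34287823.

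The 7 transcripts spanned a wide range of levels. Mean FPKM over 15 mice was 620 for Lyz2, 337 for H2-Aa, 31.8 for Cd68, 20.8 for Mrc1, 10.5 for Cd14, 2.49 for Ccl2 and 0.0803 for Il6. Lyz2 was among the most abundant transcripts of the aorta, with a rank between 20 and 400 of 108027 and a median rank of 68. H2-Aa had a median rank of 169. The order held in 15 of 15 mice for H2-Aa over Cd68, Mrc1 over Cd14, Cd14 over Ccl2 and Ccl2 over Il6. Cd68 exceeded Mrc1 in 13 of 15 mice, with a mean difference of 0.49 ± 0.37 (SD, n = 15) on the log2(FPKM + 1) scale. Lyz2 exceeded H2-Aa in 14 of 15 mice, with a difference of 0.78 ± 0.59 (SD, n = 15), and the exception was mouse 3982 of the AngII+QDG group.

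No member differed between the groups by the tests used, and each difference on the log2 scale was smaller than the SD between mice of a group. The AngII mouse 4048 had the highest level of 15 mice for 5 members, among them Il6, which was close to the limit of detection. The AngII+QDG mouse 3985 had the highest level for the other 2. Both mice are therefore named beside the results below, and each comparison is also given without them. The share of all transcripts highest of 15 in each mouse was not computed, and that within its group is given below. In whole aorta, more macrophages and more RNA per macrophage cannot be told apart, and the cell type that a transcript came from is not known. Genes that mark smooth muscle, endothelium, fibroblasts or other leukocytes were not analysed here, because no source used here pairs transcripts with names, and for the same reason the tissue itself was not checked by its markers.

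Cd68 ranged 7.11-fold over the 15 mice. Its FPKM was 27.3, 19.7, 28.7, 33.4 and 14.0 in the Control mice. It was 28.5, 33.4, 21.4, 22.9 and 99.7 in the AngII mice. It was 18.5, 21.5, 31.5, 24.6 and 52.3 in the AngII+QDG mice. All 3 groups overlapped, and the mice at 99.7 and 52.3 were 4048 and 3985. Group means were 24.6 ± 7.70 in Control, 41.2 ± 33.0 in AngII and 29.7 ± 13.5 in AngII+QDG (SD, n = 5 each), while the medians were 27.3, 28.5 and 24.6. The mean of the AngII group was thus raised by 1 mouse, and the other 4 AngII mice lay within 21.4 to 33.4, next to a Control range of 14.0 to 33.4.

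Lyz2 followed a similar course at a level far above that of Cd68. Its FPKM was 638, 571, 598, 736 and 261 in the Control mice. In the AngII mice it was 468, 817, 458, 544 and 1668. In the AngII+QDG mice it was 469, 148, 620, 412 and 897. Mouse 4048 was again the highest and mouse 3985 the second highest. The lowest values came from mouse 3982 in the AngII+QDG group and mouse 3994 in the Control group. Medians of 598, 544 and 469 in Control, AngII and AngII+QDG contrasted with means of 561 ± 179, 791 ± 512 and 509 ± 276 (SD, n = 5 each).

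**Figure D1:**
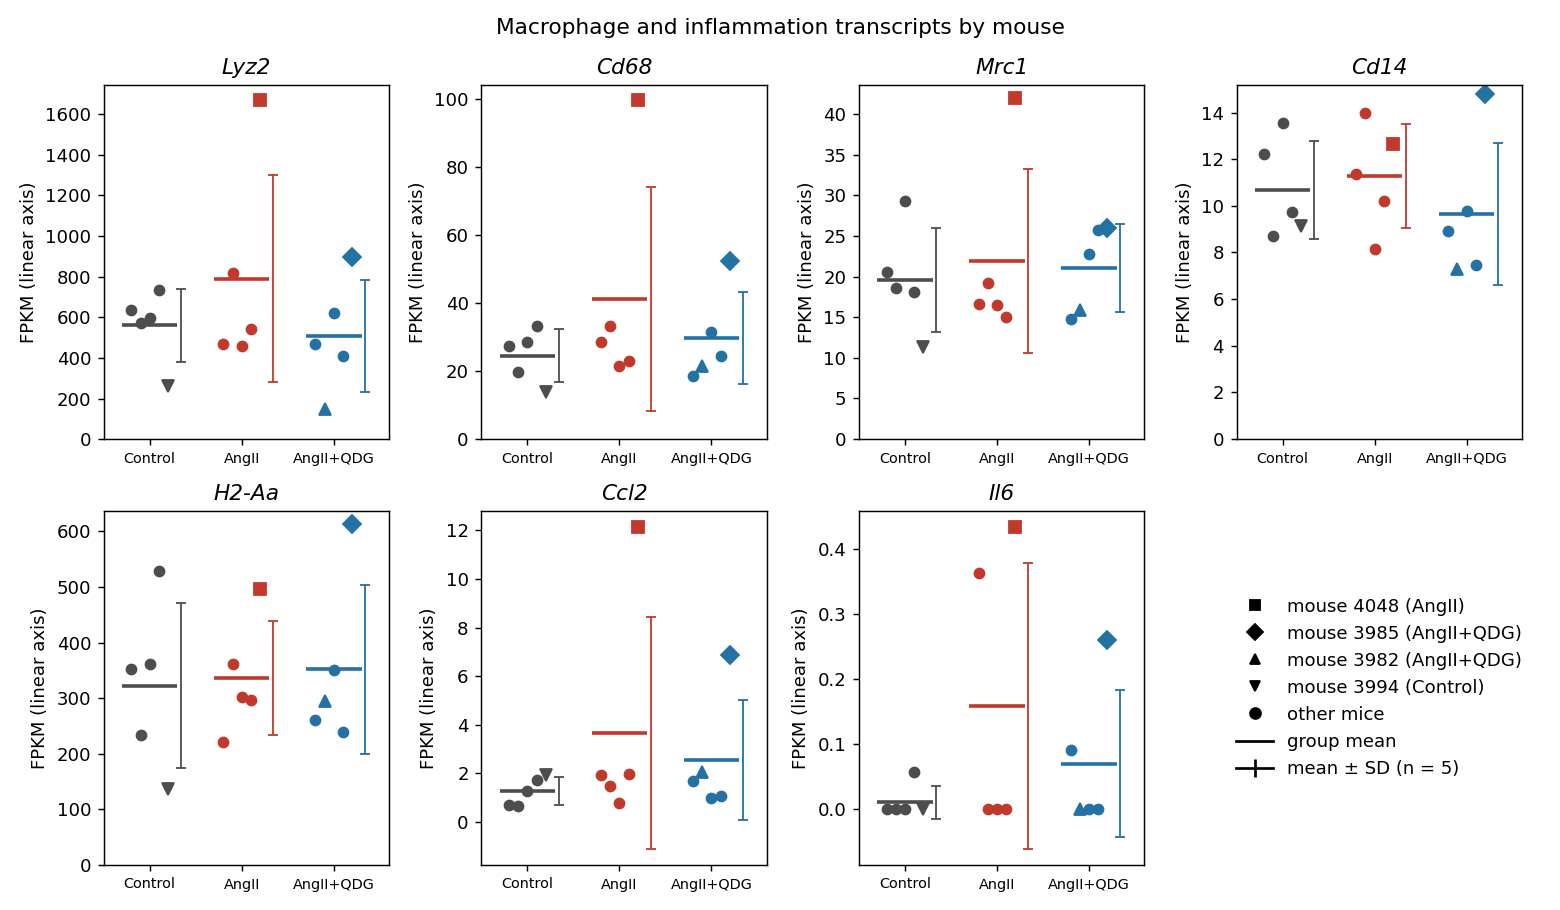
FPKM (linear axis) of each of the 7 transcripts in every mouse, in columns for Control, AngII and AngII+QDG, with a line at the group mean and a bar for mean ± SD (n = 5). The AngII mouse 4048 (square) lies at 99.7 for Cd68, 1668 for Lyz2 and 12.2 for Ccl2, above every other mouse, and the remaining points of the 3 groups overlap.

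Taken over all 15 mice, the receptor Cd14 was the steadiest of the members detected in every mouse. Cd14 varied 2.03-fold over all mice, from 7.29 to 14.8, and its coefficient of variation was 22.9%, the lowest of the 6 members that were detected in every mouse. Its FPKM was 12.2, 8.72, 13.5, 9.72 and 9.12 in Control, 11.4, 14.0, 8.15, 10.2 and 12.7 in AngII, and 8.93, 7.29, 9.77, 7.48 and 14.8 in AngII+QDG mice. Mouse 4048, so high for Cd68, was within the range of its group for Cd14.

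Mrc1 had its highest value in mouse 4048, as Cd68 did. Its FPKM was 20.5, 18.6, 29.3, 18.0 and 11.4 in the Control mice and 16.6, 19.2, 16.5, 15.1 and 42.0 in the AngII mice. The AngII+QDG mice had 14.8, 15.9, 22.8, 25.8 and 26.0. Without mouse 4048, the AngII mice lay in a narrow band from 15.1 to 19.2. That band overlapped both other groups.

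For H2-Aa, the gene of antigen presentation, the Control group was as wide as the treated groups. Its FPKM was 353, 233, 361, 529 and 136 in Control mice, 222, 361, 302, 297 and 497 in AngII mice, and 260, 295, 350, 240 and 614 in AngII+QDG mice. Mouse 3985 was the highest here, the Control mouse 3971 followed with 529, and mouse 4048 came next with 497. Means of 322 ± 148, 336 ± 103 and 352 ± 152 (SD, n = 5 each) differed by far less than their SD.

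Ccl2, the monocyte chemokine, had the widest spread of the members detected in every mouse, with an 18.5-fold range and a coefficient of variation of 123%. Its FPKM was 0.711, 0.656, 1.28, 1.72 and 1.93 in Control, 1.94, 1.49, 0.769, 1.96 and 12.2 in AngII, and 1.69, 2.06, 1.00, 1.07 and 6.87 in AngII+QDG mice. Mice 4048 and 3985 stood apart from the other 13, which lay between 0.656 and 2.06. Of the 25 possible pairs of an AngII and a Control mouse, the AngII mouse had more Ccl2 in 20, more Cd68 in 17, more Cd14 in 15, more Lyz2 and H2-Aa in 13 each and more Mrc1 in 11.

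Il6 was close to the limit of detection. It was listed above 0 in 5 of 15 mice, at 0.0568 in the Control mouse 3971, at 0.362 and 0.434 in the AngII mice 3988 and 4048, and at 0.0920 and 0.260 in the AngII+QDG mice 3981 and 3985. It was listed at 0 in the other 10 mice. The number of fragments behind these values is unknown, so a value of 0 does not show that the cytokine was not transcribed.

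The first comparison asks whether the infusion of angiotensin II altered the members, and no member tested passed the test. Mean values of all 6 were higher in AngII than in Control mice. Without mouse 4048 this held for 4 of the 6, and the medians of Lyz2, Mrc1 and H2-Aa were lower in AngII mice. The share of all transcripts with a higher mean was not computed. Differences were tested with limma on log2(FPKM + 1). A transcript entered a test if 5 or more of its 10 mice had an FPKM of 1 or more. That scale understates the change of low transcripts such as Ccl2. A differentially expressed transcript (DET) has a fold change of at least 2 and an unadjusted p below 0.05, and a stricter call asks for a Benjamini-Hochberg adjusted p below 0.05 over all transcripts tested. DETs made up 1.50% of 27327 transcripts tested (409), the stricter call 0.00732% (2), and 0.732% had groups that did not overlap. Of the 6 members tested, 0 met any of these, and Il6 did not pass the filter on low values.

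The largest differences between AngII and Control mice were in Ccl2 and Cd68. The log2 fold change of Ccl2 was 0.66 ± 0.48 (SE; 95% confidence interval -0.41 to 1.73; limma adjusted p = 0.995; exact permutation p = 0.222, n = 5 and 5). Without mouse 4048 it was 0.18, and the log2 ratio of group means, without the added 1, was 1.54. For Cd68 it was 0.52 ± 0.41 (SE; -0.38 to 1.43; limma adjusted p = 0.995; exact permutation p = 0.317), and 0.14 without mouse 4048. Lyz2 gave 0.38 with the mouse and 0.07 without it. Leaving out the Control mouse 3994, low in both, gave 0.13 for Lyz2 and 0.35 for Cd68. The other 3 were smaller, with 0.15 for H2-Aa, 0.10 for Mrc1 and 0.07 for Cd14, and without mouse 4048 Mrc1 came to -0.15 and H2-Aa to -0.0063. Without mouse 3994 Mrc1 came to -0.07 and H2-Aa to -0.13. The median over the 6 members was 0.27, beside 0.02 over all transcripts tested, and 0.05 without mouse 4048. The interval of Cd14 ran from -0.32 to 0.46, so a 2-fold change of this receptor on the same scale lay outside it, whereas the intervals of Ccl2 and Cd68 extended beyond a doubling.

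The second comparison asks whether QDG altered the members in mice infused with angiotensin II. It shares the AngII mice with the first, so mouse 4048 enters both. In addition, the AngII+QDG mice were quantified on a list of 125443 transcripts and the other mice on one of 126719, and this difference and the treatment cannot be told apart. DETs made up 3.53% of 21081 transcripts tested, the stricter call 1.73%, and transcripts whose groups did not overlap 2.86%. Of the 6 members tested, 0 met any of these.

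Lyz2 had the largest difference between AngII+QDG and AngII mice, with a log2 fold change of -0.66 ± 0.50 (SE; 95% confidence interval -1.78 to 0.45; limma adjusted p = 0.922; exact permutation p = 0.325, n = 5 and 5). Its lowest mouse, 3982, was in the AngII+QDG group and its highest, 4048, in the AngII group. Without mouse 3982 the value was -0.27, without mouse 4048 -0.35, without mouse 3985 -0.92, and without both 4048 and 3985 -0.61. Cd68 gave -0.30, Cd14 -0.23 and Ccl2 -0.18, while Mrc1 and H2-Aa gave 0.02 and 0.03. Cd68 turned to 0.08 and Ccl2 to 0.30 when mouse 4048 alone was left out. When mouse 3985 alone was left out, Cd68 and Ccl2 were each at -0.52. Without both mice, Cd68 was at -0.14, Cd14 at -0.34, Ccl2 at -0.04, Mrc1 at 0.19 and H2-Aa at -0.04. The median of the 6 members was -0.20, beside -0.0032 over all transcripts, and -0.09 without both mice. When every mouse was divided by its upper quartile (the 75th percentile of transcripts above 0), the median of all transcripts was -0.12, and all 6 members were below 0, with a median of -0.32. Lyz2 was then at -0.81, Cd68 at -0.44, Cd14 at -0.36, Ccl2 at -0.27, and Mrc1 and H2-Aa at -0.12 each, and the lowest adjusted p of limma among them was 0.484.

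AngII+QDG and Control mice were compared as well, sharing samples with both comparisons above and carrying the same difference of transcript lists. DETs made up 3.64% of 21250 transcripts tested, the stricter call 1.81%, and groups without overlap 3.24%, and 0 of the 6 members tested met any of these. Ccl2 again had the largest difference, with a log2 fold change of 0.48 ± 0.37 (SE; 95% confidence interval -0.34 to 1.29; limma adjusted p = 0.856; exact permutation p = 0.286). It was 0.13 without mouse 3985 and 0.69 with 0.1 added to FPKM in place of 1, and the log2 ratio of group means was 1.01. Cd68 gave 0.22, H2-Aa 0.18 and Mrc1 0.12, and Lyz2 -0.28 and Cd14 -0.15. After division by the upper quartile, Cd68 was at 0.11, H2-Aa at 0.06, Mrc1 at 0.01, Lyz2 at -0.40 and Cd14 at -0.26. The median of all transcripts was then -0.07. Without mouse 3985 Cd68 was at 0.00065, Lyz2 at -0.54, Cd14 at -0.31, Mrc1 at 0.04 and H2-Aa at -0.05. Without mouse 3982 Lyz2 was at 0.11 and Cd14 at -0.07.

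Il6 was compared by a 2-sided exact permutation test of its mean log2(FPKM + 1) over 10 mice. There were 252 labellings, and the smallest possible p is 0.00794 when no values are tied. Il6 was above 0 in 1 Control, 2 AngII and 2 AngII+QDG mice, and the ties at 0 raise that smallest p. In both comparisons with Control it lies above 0.05, so these tests could not pass. The exact p was 0.444 for AngII vs. Control, 0.563 for AngII+QDG vs. AngII and 0.444 for AngII+QDG vs. Control. The same exact test gave 0 of 21 p-values below 0.05 over the 7 members and 3 comparisons, which include the Il6 tests that could not pass. Likewise, 0 of the 6 members tested had an unadjusted limma p below 0.05 in any of the 3 comparisons. A p that misses the threshold does not show equal levels.

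**Figure D2:**
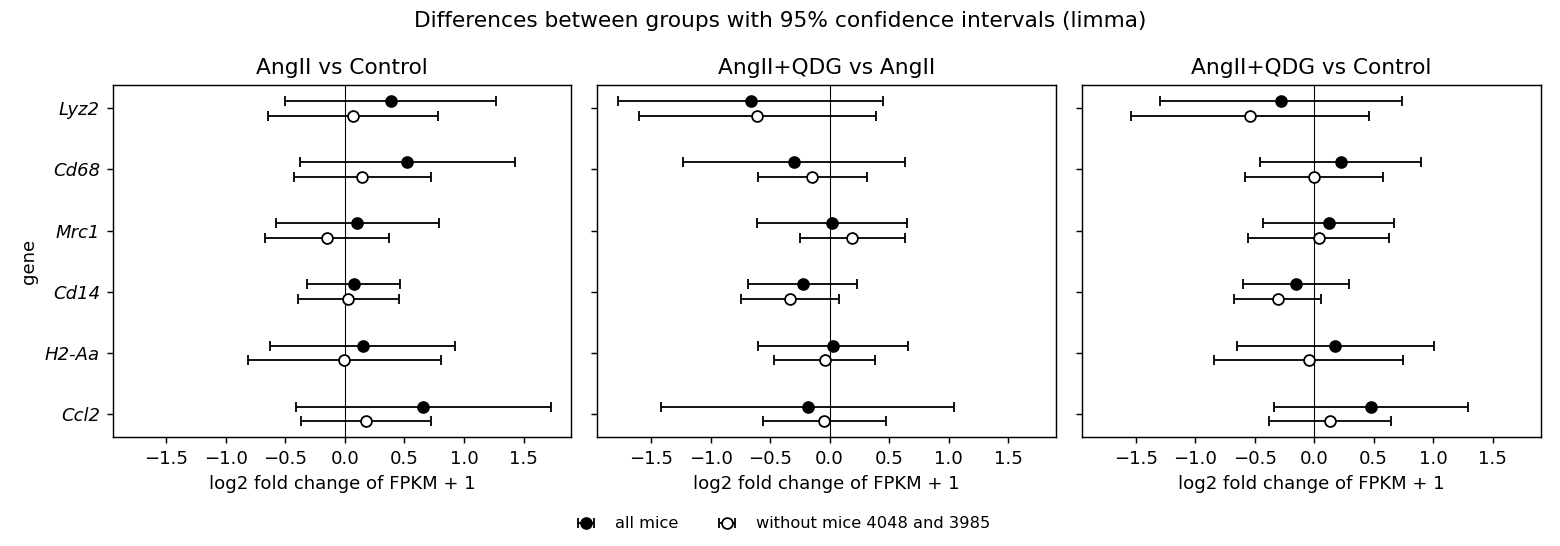
Log2 fold change of FPKM + 1 with its 95% confidence interval (limma) for 6 members in the 3 comparisons, with filled points for all mice and open points without mice 4048 and 3985. Every interval includes 0, and Ccl2 in AngII vs. Control moves from 0.66 to 0.18 when the mice are left out.

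The spread behind these intervals was wide for most members. The SD between mice of a group on the log2(FPKM + 1) scale, pooled over AngII and Control, was 0.83 for Ccl2, 0.71 for Cd68, 0.69 for Lyz2, 0.61 for H2-Aa, 0.53 for Mrc1 and 0.26 for Cd14. The median over all transcripts tested was 0.41. Cd14 was therefore less variable than most transcripts, at percentile 25.2, and Ccl2 more variable, at percentile 82.6. In AngII+QDG vs. AngII mice, Ccl2 was at percentile 90.5, Lyz2 at 87.9 and Cd68 at 82.1.

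The mouse 4048 was high for a subset of the members. Its FPKM was 2.98-fold that of the next AngII mouse for Cd68, 2.04-fold for Lyz2, 2.18-fold for Mrc1 and 6.20-fold for Ccl2, but 1.38-fold for H2-Aa and 0.906-fold for Cd14. This mouse had the highest value of its group for 31.2% of 23644 transcripts, and for 5 of the 6 members detected in every mouse. It exceeded the next mouse by at least 2-fold, on FPKM + 1, for 1.78% of transcripts, and for 4 of the 6 members. The 10 most abundant transcripts took 10.5% of its FPKM over shared transcripts, against 14.0% to 16.5% in the other AngII mice, and 10.3% in the AngII+QDG mouse 3984, whose Cd68 was 24.6 FPKM. Its upper quartile was 1.43 FPKM, the highest of the group. After each mouse was divided by its upper quartile, the folds were 2.71 for Cd68, 1.86 for Lyz2, 1.98 for Mrc1 and 5.35 for Ccl2. What part the library played in the levels of the members was not tested, and neither this scaling nor the comparison with mouse 3984 tests it.

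Mouse 3985 of the AngII+QDG group was the highest of its group for all 6 of these members. Its excess was smaller than that of mouse 4048 in Cd68, Lyz2, Mrc1 and Ccl2 and greater in Cd14 and H2-Aa. Its FPKM was 1.66-fold that of the next mouse for Cd68, 1.45-fold for Lyz2, 1.51-fold for Cd14, 1.75-fold for H2-Aa and 1.01-fold for Mrc1, and 3.34-fold for Ccl2. It was the highest of its group for 30.5% of 23558 transcripts. It exceeded the next mouse by at least 2-fold, on FPKM + 1, for 2.06% of transcripts and for 1 of the 6 members, Ccl2. Its upper quartile of 1.53 FPKM was likewise the highest of its group, and scaling by it left 1.54-fold for Cd68, 2.97-fold for Ccl2 and 0.926-fold for Mrc1.

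**Figure D3:**
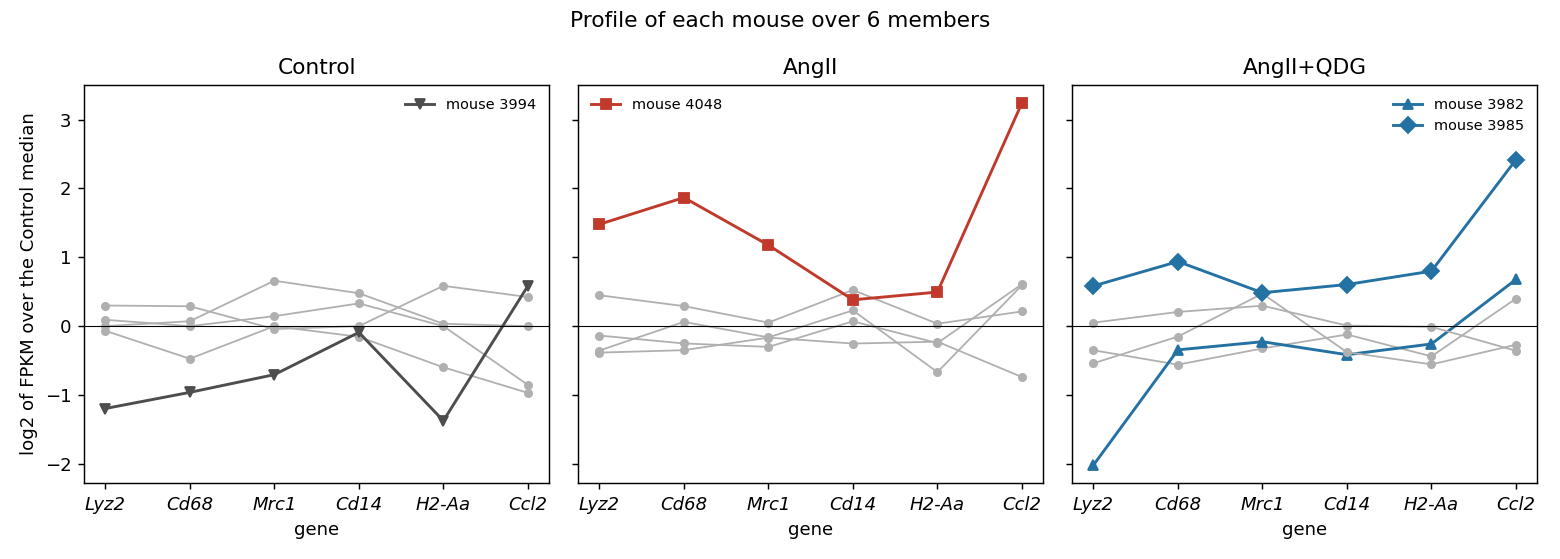
Log2 of FPKM over the Control median for 6 members in each mouse, with 1 panel per group and 1 line per mouse, and mice 3994, 4048, 3982 and 3985 marked. Mouse 4048 rises far above the AngII mice in Lyz2, Cd68, Mrc1 and Ccl2 but lies among them in Cd14, and mouse 3982 is lowest of all mice in Lyz2, at 148 FPKM, and in Cd14, at 7.29.

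The members were then compared with each other across mice. Over 15 mice, 21 pairs were examined on log2(FPKM + 1) with permutation tests of 100000 resamples, and all pairs share the libraries and their scaling. Pearson's r was positive in 21 of 21 pairs, and 11 pairs had a Benjamini-Hochberg adjusted permutation p below 0.05. With group means subtracted, 12 pairs passed, so the relation was also seen among mice with the same treatment. Spearman's rho passed in 10 pairs. Without mice 4048 and 3985, 1 pair passed, and r was negative in some pairs with Ccl2 or Il6, down to -0.50 for Mrc1 and Ccl2. The share of all pairs of transcripts that would pass was not computed, so these counts describe the members only.

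The pair that passed without mice 4048 and 3985 was Cd68 and H2-Aa. Its r was 0.79 (permutation p = 0.00055, adjusted 0.00578) and its rho 0.81 (permutation p = 0.00037, adjusted 0.00259). Within groups r was 0.81, and without the 2 mice farthest from the median of Cd68 it was 0.80. Without mice 4048 and 3985 it was also 0.80 (permutation p = 0.00105, adjusted 0.0221, n = 13).

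Cd68 and Lyz2, both markers of myeloid cells, had an r of 0.80 (permutation p = 0.00089, adjusted 0.00623) and a rho of 0.82 (permutation p = 0.00028, adjusted 0.00259). Without the 2 farthest mice r was 0.60. For Cd68 and Mrc1, r was 0.84 (permutation p = 0.00013, adjusted 0.00273), rho 0.76 (permutation p = 0.00139, adjusted 0.00584) and r without the 2 farthest mice 0.57. Both relations were weaker but positive without mice 4048 and 3985, with an r of 0.63 and 0.65 (adjusted permutation p = 0.115 and 0.110, n = 13).

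For Ccl2 and Cd68, r was 0.78 (permutation p = 0.004, adjusted 0.0167) and rho 0.33 (permutation p = 0.233, adjusted 0.326). Within groups r was 0.75 (permutation p = 0.0269, adjusted 0.0470), and without the 2 mice farthest from the median of Cd68, 4048 and 3994, it was 0.64. Without mice 4048 and 3985 it was -0.11, so the relation rested on those mice. Whether Ccl2 and the other members differ in their relation to Cd68 was not tested. The r of Ccl2 and Il6 was 0.80 (permutation p = 0.00479, adjusted 0.0167), the rho 0.61 (permutation p = 0.0184, adjusted 0.0417), and r without the same 2 mice 0.38.

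**Figure D4:**
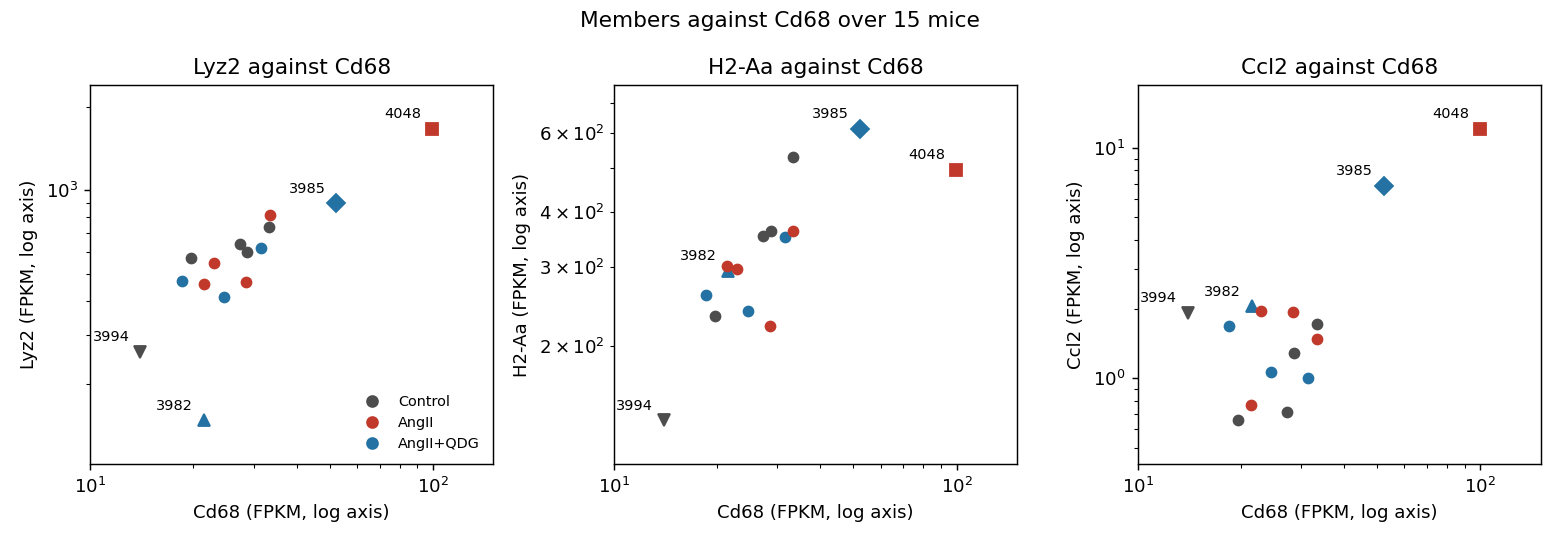
Lyz2, H2-Aa and Ccl2 against Cd68 in 15 mice, both axes in FPKM on log scales, coloured by group. H2-Aa and Lyz2 tend to rise with Cd68, with a low Lyz2 in mouse 3982. At the highest Cd68, mouse 4048 has less H2-Aa than mouse 3985. Ccl2 is high in mice 4048 and 3985 only, with an r of -0.11 over the other 13 mice.

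Ratios to Cd68 describe how the mice departed from this common course. The ratio of Lyz2 to Cd68 was 6.86 in mouse 3982 and between 16.4 and 29.0 in the other 14 mice, so Lyz2 was low in this mouse while Cd68, at 21.5 FPKM, was near that of its group. For H2-Aa the ratio was 4.99 in mouse 4048 and 7.79 to 15.9 in the others. The ratio of Mrc1 was 0.421 in mouse 4048 and 0.497 to 1.05 in the others, and that of Cd14 was 0.127 and 0.282 to 0.651. Mouse 4048 had by far the most Cd68, which by itself lowers any ratio to Cd68. Its ratio of Ccl2 was nevertheless 0.122, within the range of 0.0260 to 0.137 over all mice. The Control mouse 3994 had the lowest Cd68, Mrc1 and H2-Aa of all mice, at 14.0, 11.4 and 136 FPKM. Within its group it also had the lowest Lyz2, at 261, but the highest Ccl2, at 1.93.

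Among 23914 shared transcripts, those most like Cd68 across the 15 mice, with group means subtracted, were ENSMUST00000031982 and ENSMUST00000029748, each with an r of 0.96. Both were highest of their groups in mice 4048 and 3985, the former at 3.96 and 3.54 FPKM against at most 1.95 in Control mice, and the latter at 5.58 and 5.42 FPKM against at most 2.07. Among the members, Mrc1 was the 267th, Lyz2 the 639th, H2-Aa the 729th, Ccl2 the 1293rd and Cd14 the 2524th most like Cd68 of 23913 transcripts. The transcripts most like Lyz2 were ENSMUST00000033577, with an r of 0.94, and ENSMUST00000026613, with an r of 0.93. For Lyz2, Cd68 was the 184th, Mrc1 the 609th, H2-Aa the 772nd, Cd14 the 1357th and Ccl2 the 3956th. These are descriptions of likeness over 15 mice, and genes of these identifiers were not named here.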

How the data were processed

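Abdominal aorta of 15 mice was profiled by RNA-seq. According to the methods, the authors used NGSQC to filter reads, HISAT2 to align them to GRCm38/mm10 and StringTie to quantify transcripts. The deposited values were read as FPKM per transcript, already scaled by the authors for length and depth, so no test of counts was run and absolute depth is unknown. Summed FPKM was 454587 to 547311 per mouse. Labels and methods differ on tissue storage and on the rRNA removal kit.

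Groups came from the labels. The members and lists were chosen with earlier results of these data known. All 7 members are named by rule. Each comparison was fitted on its 10 mice with limma 3.58.1 (lmFit, eBayes with trend) in R 4.3.3 on log2(FPKM + 1). The filter kept transcripts that reached FPKM 1 in 5 or more of these mice, with Benjamini-Hochberg adjustment over all transcripts tested. Comparisons with AngII+QDG used the 108027 shared Ensembl transcripts. The fit was run on simulated data with independent values and changes larger than any fitted for the members. That run does not show how well differences of their size would be found. Permutation tests used scipy 1.17.1 and numpy 2.4.6, and figures matplotlib 3.10.9. Lists of other cell types and of further pathway genes, by symbol, were not used, since no source used here pairs transcripts with names. Gene positions are from RefSeq. Whether mice of a group were housed or processed together is not stated. The p-values set a difference of group means against the spread between mice, and cannot separate treatment from such shared handling. Alternatives were filters, pseudocount, scaling, 1 fit of all groups, ratio of means and leaving out mice.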

Additional observations from a re-analysis of the deposited data

Results flagged for a closer look

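The values of 5 mice and members stood far from the rest of their group. A value was marked when its gap to the nearest mouse, divided by the range of the group, exceeded the critical value of 0.71 of Dixon's test for 5 samples. In the AngII group, mouse 4048 had 99.7 FPKM of Cd68 where the other mice had 21.4 to 33.4, 42.0 FPKM of Mrc1 where the others had 15.1 to 19.2, and 12.2 FPKM of Ccl2 where the others had 0.769 to 1.96. In the AngII+QDG group, mouse 3985 had 6.87 FPKM of Ccl2 where the others had 1.00 to 2.06. In the Control group, mouse 3971 had 0.0568 FPKM of Il6 and the others were listed at 0. With the other 4 mice at 0, any value above 0 would have been marked, so the mark of Il6 carries no information. Of 39 groups of values examined, 4 others were marked, and chance marks about 1 in 20, here 1.95. That share assumes independent groups of normally distributed values. These groups share mice and members and hold FPKM on a linear scale, so 4 cannot be judged against 1.95. Cause was not tested for any of them.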

How the results depend on the processing

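Over 342 alternatives of single members and comparisons, 324 had a p, of which 0 were below 0.05 unadjusted (limma, or the exact permutation test for Il6), and the lowest Benjamini-Hochberg adjusted p was 0.484. Because of ties at 0, some of the Il6 tests against Control could not fall below 0.05 whatever the grouping. The sign was kept in 318 and turned in 24, of which 20 left out 1 mouse. Leaving out mice 4048 and 3985 together was chosen after seeing the data, and against Control it equals leaving out 1 mouse and was counted once. It gave log2 fold changes of -0.15 for Mrc1 and -0.0063 for H2-Aa in AngII vs. Control, and of -0.0393 and -0.0457 for H2-Aa in AngII+QDG vs. AngII and vs. Control, and it left 1 of 11 correlated pairs. Upper quartile scaling gave -0.12 for Mrc1 and -0.12 for H2-Aa in AngII+QDG vs. AngII, and the ratio of group means -0.0558 for Mrc1. For Ccl2 in AngII vs. Control, the log2 ratio of group means was 1.54.

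With each mouse left out in turn, AngII vs. Control ranged from 0.14 to 0.69 for Cd68, 0.07 to 0.53 for Lyz2, 0.18 to 0.90 for Ccl2, -0.0050 to 0.17 for Cd14, -0.15 to 0.26 for Mrc1 and -0.13 to 0.36 for H2-Aa. AngII+QDG vs. AngII ranged from -0.52 to 0.0792 for Cd68, -0.92 to -0.27 for Lyz2, -0.38 to -0.15 for Cd14, -0.0822 to 0.27 for Mrc1, -0.52 to 0.30 for Ccl2 and -0.19 to 0.18 for H2-Aa. AngII+QDG vs. Control ranged from 0.00065 to 0.36 for Cd68, 0.13 to 0.63 for Ccl2, -0.54 to 0.11 for Lyz2, -0.31 to -0.07 for Cd14, -0.0468 to 0.28 for Mrc1 and -0.0980 to 0.39 for H2-Aa. The number of correlated pairs ranged from 5, without mouse 4048, to 14, and was 7 without mouse 3985. Causes were not tested.

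No paired analysis was possible because no mouse number occurs in more than 1 group. Sums over all transcripts of a gene were not run, since no source used here pairs transcripts with genes. Under a filter that asks every mouse for FPKM 1 or more, Ccl2 and Il6 were not tested. DETs among all transcripts in AngII vs. Control, 409 in the report above, were 91 with that filter, 652 with a pseudocount of 0.1 and 237 with all groups in 1 fit, which tested 21054 shared Ensembl transcripts in place of 27327. In AngII+QDG vs. AngII and vs. Control that filter left 209 and 235. None of these called a member. Depth is unknown, which limits Il6 most.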
